A study of Mus musculus with 36 samples.

Results

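Naive CD4+ T cells lacking HP1α were compared with conventional CD4+ T cells (Tconv) of the same genotype taken from a grafted host. The aim was to describe which genes change when HP1a KO cells are activated in response to an allogeneic graft. The 6 libraries, Naive HP1a KO 1 to 3 and Tconv HP1a KO 1 to 3, were taken by their labels from the 36 libraries of the series, and the 6 libraries of HP1a WT cells under the same conditions served for comparison. In the HP1a line a floxed allele of Cbx5, which encodes HP1α, was excised with CMV-cre, so the deletion is carried in the germ line by naive cells and Tconv alike. KO and WT donors were sex-matched littermates of 6 to 12 weeks on a mixed 129/Sv and C57BL/6 background. The study states that male mice were used in view of its sequencing. Naive cells were CD44 low CD4+ T cells purified magnetically from spleen. To obtain Tconv, naive cells were injected, without regulatory T cells (Treg), into irradiated B6 hosts together with B6 and B6D2F1 marrow. About 3 weeks later CD4+ cells bearing TCR Vβ6 were sorted by flow cytometry from the spleen. Per the study, Vβ6 cells recognise a viral superantigen that cells of the allogeneic donor express and host cells do not. The gate also left out cells bearing a host marker, the allogeneic H-2Kd molecule or the marker carried by the study's Treg. The way the cells were purified, the host environment and the enrichment for Vβ6 cannot be told apart from activation in this design. Nor can proliferation driven by lymphopenia, the lack of lymphocytes in irradiated hosts, which the study describes for transferred T cells.

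A naive CD4+ T cell recirculates through lymphoid organs under a program of homing receptors and quiescence factors. On recognising antigen it divides, loses these molecules and turns into a helper cell, whose type (Th1, Th2, Th17) is set by a lineage transcription factor and shown by its cytokines and chemokine receptors. HP1α is a reader of methylated lysine 9 of histone H3 in heterochromatin, the compact chromatin in which genes are kept silent.

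The libraries of HP1a KO cells held 41667966 to 62699994 estimated counts, and 21418 to 23340 genes had counts in them. Expression levels are TMM-normalised CPM, the counts of a gene scaled to a fixed library size, and 3 counts, taken as the floor of detection in a library, correspond to 0.0487 to 0.0712 CPM. Cbx5 had 12.7, 9.32 and 11.5 CPM in naive KO cells and 15.8, 16.4 and 14.1 CPM in KO Tconv, against 19.2 to 25.1 CPM in naive WT cells and 26.3 to 30.7 CPM in WT Tconv. Every KO library was below every WT library, and the counts that were left cannot be assigned to a part of the gene in a table per gene. The study reports, with western blots, that HP1α protein was absent from naive CD4+ T cells of this line, which RNA levels do not measure. Within KO the Tconv libraries were above the naive libraries, by 0.50 ± 0.16 on the log2 scale (SE), which is below the fold threshold used here. The T cell label held in all libraries. The gene for CD3ε, Cd3e, had 880 to 1010 CPM in naive KO cells and 879 to 927 CPM in KO Tconv and 15 of 16 T cell identity genes were not called. Trbv19, which encodes Vβ6, had 36.5 to 42.2 CPM in naive KO cells and 318 to 434 CPM in KO Tconv, as the gate sets it, which is not a finding.

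Some libraries stood apart. Replicate 1 of naive KO cells was unlike the other naive KO libraries, with a chi-square per gene of 108 and 110 against replicates 2 and 3, where those differed by 7.85. The summed level of 30 activation and effector transcription factors was 10145 CPM in it and 4874 and 5226 CPM in the others. The same was seen in naive WT cells, with 9790 CPM in replicate 1 and 4282 and 4657 CPM in replicates 2 and 3. Among Tconv, each KO library held more transcripts of macrophages, neutrophils and red blood cells than any WT library, with the highest levels in replicate 3 and the lowest in replicate 2, as given below. As each pair of replicates differed by more than the sampling noise, each library was counted as a sample. Whether they came from separate animals is not given in the sources used here, so p-values measure only the spread between these samples, which may be technical.

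The transcriptomes of naive cells and Tconv differed widely. Of 15773 genes tested, 1961 were higher in KO Tconv (12.4% of genes tested) and 1142 were lower (7.24%), at an adjusted p under 0.05 and an absolute log2 fold change above 1 (quasi-likelihood test of edgeR, p-values adjusted by Benjamini-Hochberg). These thresholds define "called" throughout. The changes upward were the larger, with a median size of 2.996 on the log2 scale against 1.865 for the genes called lower, and 978 genes rose but 247 fell by more than 3 on that scale. The 3 Tconv libraries were all above the 3 naive libraries for 1954 of the 1961 genes called higher, and all below them for each of the 1142 genes called lower. Such a lack of overlap was common, at 55.1% of all genes tested, and is nearly fixed by the call. Of the genes called higher 115 had no count in any naive KO library. Since a gene had to pass a filter on low counts, such a gene passed through Tconv alone and had to differ. Protein-coding genes made up 1646 of the genes called higher and 773 of those called lower, and long noncoding RNAs 205 in each direction. In bulk RNA, more cells with a transcript and more transcript per cell cannot be told apart.

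**Figure D1:**
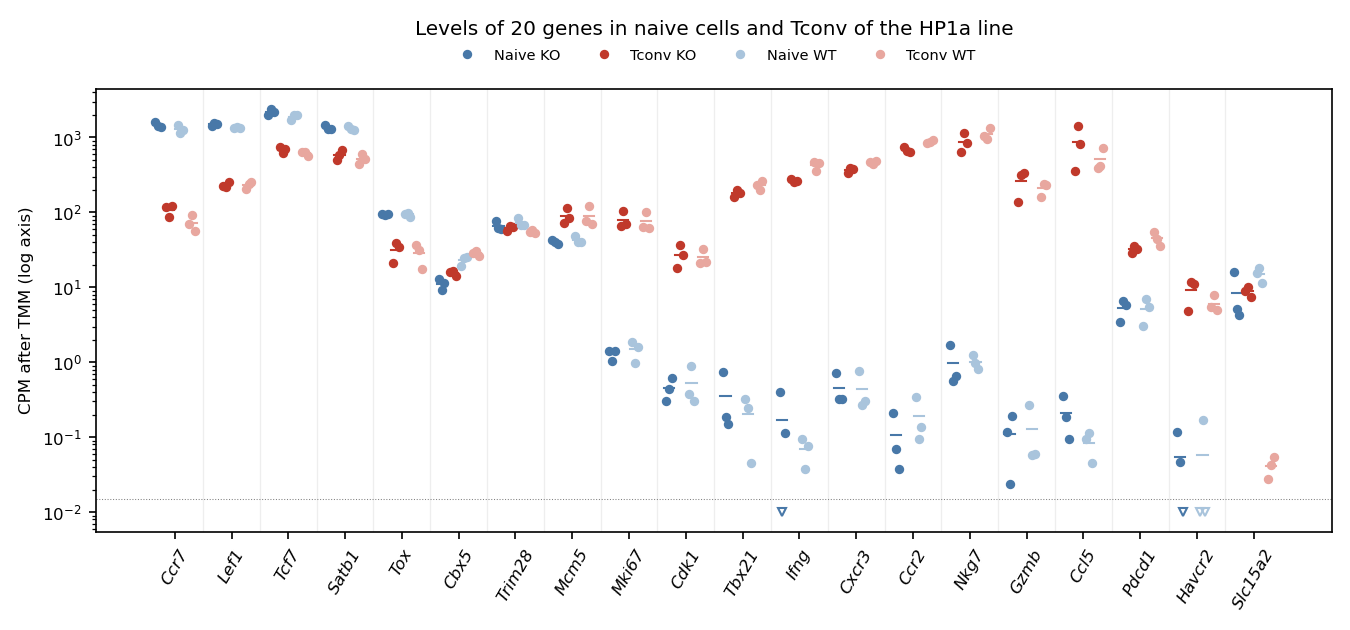
Levels of 20 genes in the 12 libraries of the HP1a line, as CPM after TMM normalisation on a log axis. Each point is a library, short bars are the means of 3 libraries, and open triangles at the bottom mark libraries with a count of 0. The genes of naive cells on the left (Ccr7, Lef1, Tcf7, Satb1, Tox) are lower in Tconv of both genotypes, the effector genes on the right (Ifng, Ccr2, Ccl5) are near the floor in naive cells and between 258 and 1423 CPM in KO Tconv, and Slc15a2 is low in WT Tconv only.

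The naive program was reduced. Of 24 genes of naive and quiescent T cells, all tested, 18 were called lower and none higher by edgeR, with a median log2 fold change of -1.64 where the median over all genes tested was -0.01. Ccr7, the receptor that guides T cells into lymph nodes, had 1611, 1405 and 1367 CPM in naive KO cells and 119, 87.6 and 120 CPM in KO Tconv, a log2 fold change of -3.71 ± 0.15 (SE, adjusted p = 6.98e-06). The groups were far apart and the Tconv libraries close together. Lef1 and Tcf7, transcription factors of naive and memory T cells, differed in how far they fell. Lef1 went from 1413, 1571 and 1531 CPM to 223, 219 and 251 CPM. Tcf7 went from 1981, 2412 and 2208 CPM to 741, 619 and 708 CPM. Satb1, a chromatin organiser of T cells, went from 1312 to 1452 CPM to 499 to 675 CPM. Of the 6 members not called, Klf2, which drives the exit from lymphoid organs, was lower in each Tconv library at 496 to 643 CPM against 794 to 846 CPM, below the fold threshold. Il7r, the receptor for the survival cytokine IL-7, had 524 to 662 CPM in naive cells and 484 to 763 CPM in Tconv with overlapping groups. In WT cells 17 of the 24 genes were called lower and none higher, where 12.9% of genes were called higher and 10.2% lower.

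Th1 genes rose with few exceptions. Of 14 Th1 core genes 12 were called higher, with a median log2 fold change of 5.81, and Stat4, which relays IL-12 signals, was among the 2 not called. Ifng, the cytokine that defines Th1 cells, had 0.402, 0 and 0.114 CPM in naive KO cells and 281, 258 and 260 CPM in KO Tconv. The Tconv libraries were close together. Its log2 fold change was 10.64 ± 0.49 (SE, edgeR adjusted p = 2.18e-05). Tbx21, which encodes the Th1 lineage factor T-bet, had 0.733, 0.187 and 0.152 CPM in naive cells and 159, 200 and 183 CPM in Tconv. Cxcr3, the receptor that brings Th1 cells to inflamed tissue, went from 0.323 to 0.709 CPM to 341 to 386 CPM. Cxcr6, another receptor of effector cells, varied more among Tconv, at 1077, 541 and 695 CPM, against 1.68 to 1.94 CPM in naive cells. Ly6c2 rose to 407 to 516 CPM from 3.47 to 4.07 CPM, though its reads may be shared with the near-identical Ly6c1. On a curated list of 75 Th1 genes, 35 of 69 tested members were called higher and 2 lower, with a median of 1.04. The genes called lower on it were Prg4 and Ifngr2, a chain of the IFN-γ receptor, which went from 107.4 to 193 CPM to 13.1 to 58.3 CPM, a call lost without naive replicate 1, 2 or 3 or Tconv replicate 3 (log2 fold change -1.55 to -2.01, edgeR adjusted p = 0.0575 to 0.104). The other chain, Ifngr1, rose from 225 to 248 CPM to 495 to 907 CPM.

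Cytokines outside the Th1 program were also detected. Of 21 effector cytokines 15 passed the filter, and 11 of these were called higher and none lower (median 4.87). Csf2, which encodes GM-CSF, had 0.189, 0.164 and 0.0381 CPM in naive KO cells and 18.9, 34.5 and 23.8 CPM in KO Tconv. Csf1, a growth factor for macrophages, had 0.742 to 1.33 CPM in naive cells and 70.4, 346 and 193 CPM in Tconv, so that the replicates differed several-fold. Tnf rose from 12.6 to 17.0 CPM to 54.3 to 77.5 CPM, and Il2, the growth factor of T cells, from 0.473 to 0.796 CPM to 12.1 to 19.96 CPM. Il10, a cytokine that restrains inflammation, was called but low, at 0.309, 0.872 and 1.57 CPM in Tconv.

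Th17 genes rose in every Tconv library, but unequally. Of 10 Th17 core genes 9 were called higher (median 5.82, or 5.63 with Il17a at its bound), the exception being Stat3. Il17a, the cytokine that defines Th17 cells, had no count in naive KO cells and 28.3, 1.70 and 1.23 CPM in KO Tconv, which is at least 158-fold higher than 3 counts per naive library, and its call was lost without naive replicate 1, 2 or 3 (edgeR adjusted p = 0.0735 to 0.103). Replicate 1 was by far the highest. The same order of replicate 1 above the others held for Rora, a nuclear receptor of Th17 cells, at 319, 159 and 156 CPM, and for Tmem176b, an ion channel gene of Th17 cells, at 211, 50.3 and 30.5 CPM. Summed over the list, Tconv KO had 1219, 674 and 656 CPM, Tconv WT 892, 809 and 1067 CPM, and naive KO cells 369 to 383 CPM.

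Genes of the other helper types moved in part. Of 9 Th2 genes 5 were called higher, where 12.4% of all genes tested were called higher and 7.24% lower. Gata3, the Th2 lineage factor that naive cells also express, rose from 101 to 117 CPM to 339, 682 and 518 CPM, and Il1rl1, the receptor of the alarmin IL-33, from at most 0.117 CPM to 38.7, 50.5 and 82.3 CPM. Il4ra, through which IL-4 acts, fell from 451 to 590 CPM to 149 to 259 CPM, a call lost without Tconv replicate 1 (log2 fold change -0.98). Of 10 Tfh genes tested 5 were called higher and Pou2af1 lower, and Bcl6, the lineage factor of follicular helper cells, had 11.2, 14.0 and 14.6 CPM in naive cells and 6.10, 6.29 and 7.79 CPM in Tconv, a log2 fold change of -0.95 below the threshold. Of 11 Treg markers 6 were called higher, among them Nrp1, Tnfrsf18 and Capg, and Ikzf4 and Gpr83 lower. Foxp3, the lineage factor of Treg, had 11.1, 7.84 and 8.60 CPM in naive cells and 13.1, 7.54 and 13.5 CPM in Tconv and was not called (edgeR adjusted p = 0.339).

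**Figure D2:**
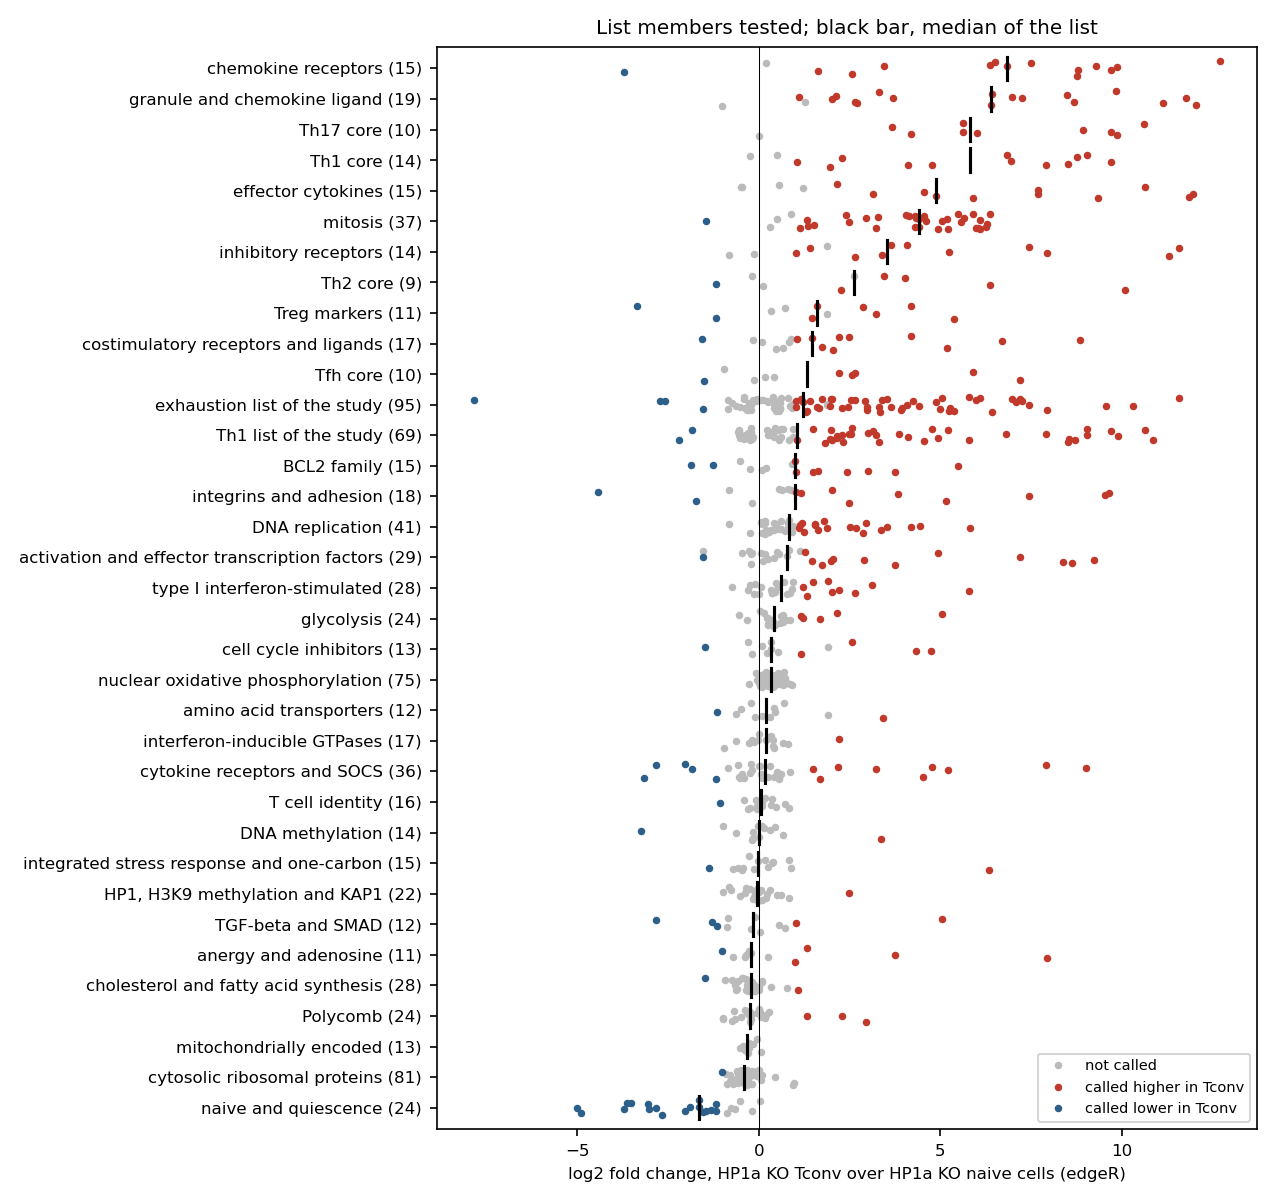
Log2 fold changes (edgeR) of KO Tconv over naive KO cells for the members of each gene list that passed the filter, 1 point per gene, with their number in brackets. Red points were called higher, blue points lower and grey points not called, and black bars are medians. Lists of chemokine receptors, granule genes and helper lineages lie on the right, the naive and quiescence list on the left, and the ribosomal, mitochondrial and chromatin lists around 0.

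Genes of effector function had the largest list medians. Of 19 granule and chemokine ligand genes tested 17 were called higher (median 6.39), the exceptions being Gzmc and Prf1, named after their values were seen. Gzmb, a protease of cytotoxic granules, had 0.118, 0.0234 and 0.190 CPM in naive KO cells and 139, 313 and 339 CPM in KO Tconv. Ccl5, a chemokine released by effector T cells, had 0.355, 0.187 and 0.0951 CPM in naive cells and 352, 1423 and 822 CPM in Tconv. Nkg7, a granule membrane protein, reached 637, 1131 and 838 CPM. In each of the 3 genes replicate 1 was the lowest Tconv library, the reverse of the Th17 genes, and the summed level of the list was 2473, 4634 and 3607 CPM. Of 15 chemokine receptors tested 13 were called higher and Ccr7 lower (median 6.84), and Cxcr4 was not called. Ccr2, the receptor for chemokines of inflamed tissue, had 0.213, 0.0702 and 0.0381 CPM in naive cells and 739, 668 and 637 CPM in Tconv, a log2 fold change of 12.70 ± 0.31 (SE, edgeR adjusted p = 8.97e-07). Of 18 integrins and adhesion molecules tested 9 were called higher and Itga5 and Itga6 lower, against 12.4% and 7.24% of all genes tested. Itgb1, the shared β1 chain of the VLA integrins, had 59.3, 60.1 and 59.7 CPM in naive cells and 1393, 2678 and 2157 CPM in Tconv. Itga6, an α chain that binds laminin, fell from 264 to 296 CPM to 76.0 to 93.0 CPM. Cd44, also called higher, was used to select naive cells.

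Receptors that restrain T cells rose as a group but to unlike levels. Of 14 inhibitory receptors 11 were called higher and none lower (median 3.52). Pdcd1, which encodes PD-1, had 3.498, 6.56 and 5.75 CPM in naive KO cells and 28.8, 35.8 and 32.4 CPM in KO Tconv. Havcr2, which encodes TIM-3, had at most 0.118 CPM in naive cells and 4.82, 11.9 and 11.2 CPM in Tconv, and Tigit at most 1.65 CPM and 20.01, 23.3 and 25.3 CPM. Lag3 was called at a low level, 0.636 to 0.714 CPM in Tconv. Entpd1, an enzyme that helps to produce adenosine, rose from 0.190 to 0.473 CPM to 35.0, 90.6 and 82.5 CPM. Lilrb4a rose from at most 0.165 CPM to 213 to 335 CPM, although Salmon may divide its reads with the near copy Lilrb4b. Ctla4, a competitor of CD28, had 56.0 CPM in naive replicate 1 but 6.67 and 7.42 CPM in the others, and 113, 61.2 and 76.4 CPM in Tconv. Its groups did not overlap, yet it was not called (edgeR adjusted p = 0.137). Tox, a transcription factor known from exhausted T cells, was lower in Tconv, at 20.8, 39.3 and 34.6 CPM against 96.2, 91.6 and 94.97 CPM. On a curated list of exhaustion genes, 49 of 95 tested members were called higher and 4 lower, with a median of 1.22.

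Costimulatory molecules rose in 10 of 17 members (median 1.47), where 12.4% of all genes tested were called higher and 7.24% lower. Icos, which supports helper function, had 110, 47.0 and 48.8 CPM in naive KO cells and 302, 332 and 301 CPM in KO Tconv, and Cd226, an activating receptor, 70.5 to 72.7 CPM and 223 to 251 CPM. Cd27, a receptor of naive and memory T cells, was the only member called lower, from 326 to 378 CPM to 99.1 to 126 CPM. Of 11 genes of anergy and adenosine production 4 were called higher and Cblb lower, the latter lost without naive replicate 1 (log2 fold change -0.60) or without any of the Tconv replicates 1 to 3 (-0.92 to -1.09, with edgeR adjusted p = 0.066 to 0.102). Nt5e, the enzyme CD73, rose by 1.01 ± 0.15 on the log2 scale (SE). Its call was lost, at 0.89 to 0.997, without naive replicate 1 or 3 or Tconv replicate 1 or 3. The call of Nt5e was also lost with DESeq2 (0.999), RLE size factors (0.998), total counts only (0.93) and all 12 libraries in 1 fit (0.98). Izumo1r, the anergy marker FR4, had 59.3 to 87.4 CPM in naive cells and 46.0 to 69.3 CPM in Tconv and was not called.

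Among 36 cytokine receptors and signal regulators, 9 were called higher, 5 lower and 22 neither (median 0.17). The shares over all genes tested were 12.4% higher and 7.24% lower. Il2rb, the β chain shared by the receptors for IL-2 and IL-15, had 25.1, 24.9 and 26.6 CPM in naive KO cells and 830, 945 and 982 CPM in KO Tconv, a log2 fold change of 5.20 ± 0.09 (SE, edgeR adjusted p = 3.74e-07). Cish, a feedback inhibitor induced by STAT5, went from 15.8 to 20.6 CPM to 402 to 427 CPM. Both chains of the IL-6 receptor fell. Il6ra went from 189 to 211 CPM to 42.8 to 53.3 CPM, and Il6st, the signalling chain gp130, from 314 to 435 CPM to 38.2 to 52.2 CPM. In the TGF-β pathway 2 of 12 genes tested were called higher, 3 lower and 7 neither (median -0.16). Tgfb3 rose from 0.398 to 1.21 CPM to 21.5 to 29.4 CPM. Smad3, a signal transducer, rose by 1.01 ± 0.19 on the log2 scale (SE). The call of Smad3 was lost without naive replicate 1 or 3 or Tconv replicate 2 (0.79 to 0.97). It was also lost with total counts only (0.93), the replicate block (0.996) and all 12 libraries in 1 fit (0.99). The co-receptor Tgfbr3 fell from 155 to 184 CPM to 18.1 to 27.02 CPM. Smad7 and Skil, inhibitors of SMAD signalling, were also called lower, with their highest level in naive replicate 1, and both calls were lost without it (log2 fold change -0.84 and -0.89). The call of Smad7 was also lost without Tconv replicate 2 or 3, at an edgeR adjusted p of 0.0516 and 0.0597.

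The calls among transcription factors of activated cells depended on naive replicate 1. Of 29 tested 12 were called higher and Tox lower, and without naive replicate 1 the number called higher was 19. Nr4a1, an early gene of T cell receptor signalling, had 989 CPM in naive replicate 1, 78.5 and 83.0 CPM in replicates 2 and 3, and 339, 272 and 371 CPM in KO Tconv. Irf4, another early gene, had 51.4, 2.41 and 3.03 CPM in naive cells and 22.4, 18.8 and 18.9 CPM in Tconv. Both were named after their values were seen. The part of this library in the calls was otherwise not tested. Id2, an inhibitor of E proteins that accompanies effector fate, had 205, 130 and 130 CPM in naive cells and 2130, 2038 and 1906 CPM in Tconv. Bhlhe40, a repressor that favours cytokine production, had 9.17, 0.398 and 0.571 CPM in naive cells and 1710, 919 and 1205 CPM in Tconv. Prdm1, which encodes BLIMP1, rose from 5.79 to 12.4 CPM to 30.1 to 47.5 CPM, Batf from 30.4 to 41.0 CPM to 79.6 to 98.8 CPM, and Maf from 1.36 to 7.14 CPM to 79.1 to 114 CPM.

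Genes of mitosis and of DNA replication rose in Tconv. Of 37 mitosis genes 33 were called higher and 1 lower (median 4.41), and of 41 replication genes 18 were called higher and none lower (median 0.83). Without a fold threshold, 35 and 30 were higher, where 3606 of all 15773 genes tested were. The difference between the lists was not tested. Cdk1, the kinase that starts mitosis, had 0.307, 0.445 and 0.609 CPM in naive KO cells and 17.9, 36.8 and 26.8 CPM in KO Tconv, a log2 fold change of 5.91 ± 0.37 (SE, edgeR adjusted p = 3.93e-05). Top2a, a topoisomerase of dividing cells, had 5.65, 5.34 and 5.10 CPM in naive cells and 93.7, 162 and 114 CPM in Tconv. Mki67, the marker of cycling cells, had 1.05 to 1.43 CPM and 65.5, 105 and 69.5 CPM. In all 3 genes the groups were far apart and Tconv replicate 2 was the highest. Mcm5, a subunit of the replicative helicase, was already at 42.4, 40.7 and 38.4 CPM in naive cells and at 71.2, 113 and 85.4 CPM in Tconv, a call lost without Tconv replicate 2 (log2 fold change 0.97). E2f2, a member of the E2F factors that drive S phase, rose from 13.6, 17.8 and 15.9 CPM to 98.5, 138 and 103 CPM, and Rrm2, a subunit of ribonucleotide reductase, from 4.87 to 5.93 CPM to 85.0 to 151 CPM. The member called lower, Smc4, encodes a condensin subunit and had 633 to 690 CPM in naive cells and 227 to 245 CPM in Tconv, while its partner Smc2 rose from 28.5 to 31.0 CPM to 70.5 to 82.4 CPM. Among cell cycle regulators Ccnd3, a D-type cyclin, rose from 261 to 277 CPM to 545 to 657 CPM, and the inhibitors Cdkn2c and Cdkn1a were called higher too, the latter with 4.89 CPM in naive replicate 1 and at most 0.0702 CPM in the others. The call of Cdkn1a was kept without naive replicate 1 and lost without any other library (log2 fold change 4.14 to 4.87, edgeR adjusted p = 0.0594 to 0.0773).

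The promoters of these genes are shown since they carry the letters by which the 2 phases of the cycle are known to be distinguished. E2F factors bind before S phase, and the DREAM and MuvB complexes bind a cell cycle homology region (CHR) near CCAAT boxes in genes of mitosis. Each window runs from 250 bases before to 50 bases from the start site of the canonical transcript (GENCODE annotation of GRCm39), 5′ to 3′ on the strand of the gene, and such a window was read for 15678 of the 15773 genes. The letters searched on both strands were TTTGGCGC or TTTCCCGC for E2F, and TTTGAA together with CCAAT for CHR with CCAAT, and capitals mark the matches. Cdk1 lies at chr10:69188719-69189018 (minus strand) and Top2a at chr11:98914992-98915291 (minus strand), with CHR and CCAAT letters in capitals. Mcm5 at chr8:75835890-75836189 (plus strand) and E2f2 at chr4:135899335-135899634 (plus strand) have E2F letters in capitals.
Cdk1: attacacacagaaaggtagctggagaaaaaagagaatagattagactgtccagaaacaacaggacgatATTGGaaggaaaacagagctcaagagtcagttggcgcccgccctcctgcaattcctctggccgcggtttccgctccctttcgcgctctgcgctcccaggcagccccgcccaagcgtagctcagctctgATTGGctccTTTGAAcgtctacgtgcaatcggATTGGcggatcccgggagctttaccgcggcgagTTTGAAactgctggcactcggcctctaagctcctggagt
Top2a: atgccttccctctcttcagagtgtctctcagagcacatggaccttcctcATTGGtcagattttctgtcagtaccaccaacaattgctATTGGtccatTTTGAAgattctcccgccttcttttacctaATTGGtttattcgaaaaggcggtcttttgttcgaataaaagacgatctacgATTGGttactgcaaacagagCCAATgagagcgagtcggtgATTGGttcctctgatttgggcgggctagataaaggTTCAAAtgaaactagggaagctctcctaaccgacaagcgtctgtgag
Mcm5: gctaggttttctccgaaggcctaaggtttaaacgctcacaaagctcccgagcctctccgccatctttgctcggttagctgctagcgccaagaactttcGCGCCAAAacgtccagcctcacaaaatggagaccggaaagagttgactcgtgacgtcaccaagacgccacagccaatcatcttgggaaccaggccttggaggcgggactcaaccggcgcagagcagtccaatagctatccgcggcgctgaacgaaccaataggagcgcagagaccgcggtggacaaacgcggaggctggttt
E2f2: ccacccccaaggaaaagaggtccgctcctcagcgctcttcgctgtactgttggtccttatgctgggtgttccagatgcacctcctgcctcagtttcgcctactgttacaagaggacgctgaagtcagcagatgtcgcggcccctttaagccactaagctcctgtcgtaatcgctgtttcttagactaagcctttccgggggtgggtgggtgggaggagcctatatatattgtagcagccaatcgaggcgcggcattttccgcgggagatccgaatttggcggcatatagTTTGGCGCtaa
In Cdk1 the TTTGAA matches begin 45 bases before and 11 bases after the start site, with 3 CCAAT matches upstream on the other strand, and Top2a holds 2 of the former and 6 of the latter. Both letters occurred together in 17 of 37 promoters of mitosis genes (45.9%) and in 2 of 41 of replication genes (4.88%), against 5.96% of all 15678 promoters. The E2F letters showed the reverse, in 13 of 41 promoters of replication genes (31.7%) and in 0 of 37 of mitosis genes, against 2.49% of all. Over all genes called higher the shares were 7.87% and 2.37%, and over those called lower 5.47% and 1.94%. A match describes letters in this window and does not show that a factor binds there. Of the other letters searched, an AP-1 site (TGANTCA) was in 7.92% of promoters of genes called higher, 5.47% of genes called lower and 5.59% of all, and an ETS site (CCGGAAGT) in 2.67%, 2.29% and 5.98%.

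Interferon-stimulated genes were called higher in 9 of 28 members (median 0.61) and lower in none, against 12.4% and 7.24% of all genes tested. Oas3, which senses double-stranded RNA, had 7.78, 11.8 and 10.4 CPM in naive KO cells and 61.2, 106.6 and 85.6 CPM in KO Tconv (log2 fold change 3.11 ± 0.24, SE). Ifi27l2a rose from 65.6 to 96.4 CPM to 217 to 383 CPM, and Cmpk2 from 12.8 to 18.9 CPM to 52.5 to 74.3 CPM. Of 17 interferon-inducible GTPases, in contrast, Gbp3 alone was called higher. The promoter of Oas3, at chr5:120915680-120915979 on the minus strand, is shown with the letters of the interferon-stimulated response element (ISRE, GAAANNGAA on either strand) in capitals, where 2 overlapping matches join.
Oas3: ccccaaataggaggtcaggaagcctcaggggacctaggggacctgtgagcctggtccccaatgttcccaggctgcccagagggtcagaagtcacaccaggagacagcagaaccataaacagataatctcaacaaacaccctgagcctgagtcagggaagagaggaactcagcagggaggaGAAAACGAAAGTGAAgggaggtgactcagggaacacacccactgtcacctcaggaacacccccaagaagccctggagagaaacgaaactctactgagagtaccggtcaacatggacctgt
These letters were in 16 of 28 promoters of the list (57.1%), in 8.55% of all promoters, and in 9.10% of those of genes called higher.

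Genes of the BCL2 family, which sets the threshold for cell death, moved in both directions. Of 15 members 8 were called higher and 2 lower, against 12.4% and 7.24% of all genes tested. When naive replicate 1 and Tconv replicate 3 were both left out, 5 were called higher. Bcl2l1, which encodes the survival protein BCL-XL, rose from 23.9 to 27.4 CPM to 73.8 to 83.3 CPM. Bcl2a1b, another survival gene with near-identical copies, rose from 19.1 to 28.6 CPM to 109 to 127 CPM. Pmaip1, which encodes the killer protein NOXA, had 5.03, 1.01 and 0.495 CPM in naive KO cells and 101, 80.0 and 101 CPM in KO Tconv. Bcl2l11, which encodes the killer protein BIM, fell from 117, 77.2 and 68.8 CPM to 33.3, 32.1 and 42.0 CPM. Bcl2 itself had 361 to 433 CPM in naive cells and 212 to 331 CPM in Tconv, below the fold threshold.

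Metabolic genes moved by small amounts, so that counts depended on the fold threshold. For all 15773 genes tested, 12.4% were called higher and 7.24% lower, and without the threshold 6408 passed, 3606 of them higher. Of 24 glycolysis genes 5 were called higher and none lower (median 0.42), and without the threshold 18 were higher and 2 lower. Slc2a3, a glucose transporter, rose from 54.6 to 60.5 CPM to 174 to 193 CPM, and Pfkp, a phosphofructokinase, from 157 to 169 CPM to 320 to 377 CPM. Of 28 genes of cholesterol and fatty acid synthesis Ebp was called higher and 1 gene lower, and without the threshold 2 were higher and 10 lower. Asns, which makes asparagine, was the only gene of 15 of the integrated stress response and one-carbon metabolism called higher, from 0.0709 to 0.117 CPM to 5.89 to 8.03 CPM, and Trib3 the only gene called lower. Of 12 amino acid transporters Slc43a1 was called higher and Slc1a4 lower, both below 5 CPM, and the call of Slc1a4 was lost without naive replicate 1 or 3 or any Tconv library (log2 fold change -0.86 to -1.23). None of 75 nuclear genes of oxidative phosphorylation was called (median 0.34), nor any of 13 genes of mitochondrial DNA (median -0.33). Without a fold threshold, at an adjusted p under 0.05 in edgeR, 49 of the 75 were higher and 5 of the 13 lower. Of 81 cytosolic ribosomal protein genes Rps29 alone was called, lower in Tconv (log2 fold change -1.01, and -0.9993 and -0.95 without naive replicate 1 or Tconv replicate 3, where the call was lost), and without a fold threshold 64 were lower and 2 higher (median -0.40).

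Few chromatin regulators changed by more than the fold threshold. Without it, 4 genes were higher and 6 lower of 22 for HP1 proteins, H3K9 methylation and KAP1, 3 and 9 of 24 Polycomb genes, and 4 and 3 of 14 genes of DNA methylation. Over all 15773 genes tested, 6408 passed without the threshold, 3606 of them higher. With the threshold 12.4% of all genes tested were called higher and 7.24% lower, and the share of Polycomb genes called higher was near this. With it, of the 22 genes of the first list only Chaf1a, a subunit of the histone chaperone CAF-1 that works at replication forks, was called, with 5.36, 2.81 and 3.88 CPM in naive KO cells and 16.9, 26.5 and 22.0 CPM in KO Tconv. The paralogs of the deleted gene overlapped between groups. Cbx1, which encodes HP1β, had 39.4 to 40.4 CPM in naive cells and 38.3 to 45.0 CPM in Tconv, with a log2 fold change of 0.05 ± 0.09 (SE). Cbx3, which encodes HP1γ, had 142 to 160 CPM and 138 to 149 CPM, with -0.03 ± 0.07. Suv39h1, which methylates H3K9, was lower in each Tconv library, at 31.6 to 36.0 CPM against 49.3 to 49.99 CPM, below the fold threshold. Trim28, which encodes KAP1, had 60.3 to 77.4 CPM and 57.1 to 65.3 CPM. Of 24 Polycomb genes 3 were called higher, among them the H3K27 methyltransferase Ezh2, from 22.7 to 25.7 CPM to 46.3 to 72.4 CPM, and of 14 genes of DNA methylation Uhrf1 was called higher and Tet1 lower. Uhrf1, which recruits the maintenance methyltransferase to new DNA, rose from 5.18 to 6.30 CPM to 44.8 to 74.0 CPM, and Tet1, which oxidises methylcytosine, fell from 34.7 to 39.6 CPM to 2.78 to 4.73 CPM. Dnmt1 had 133 to 167 CPM in naive cells and 107.5 to 187 CPM in Tconv and was not called.

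The genes with the highest fold changes at a mean of 5 CPM or more were often without a count in naive cells. Ttc39c had no count in naive KO cells and 112, 73.0 and 70.4 CPM in KO Tconv, at least 1289-fold above 3 counts per naive library. On the same basis Cysltr1, a receptor for leukotrienes, was at least 934-fold higher with 29.9, 92.7 and 62.5 CPM in Tconv, and Hrh4, a histamine receptor, at least 656-fold higher with 26.1, 56.0 and 48.0 CPM. Plekhg3, Cpne7, Plcd1 and Soat2 were at least 338-, 256-, 218- and 200-fold higher. Ifitm1, an interferon-induced membrane protein, had at most 0.0571 CPM in naive cells and 390, 131 and 197 CPM in Tconv, and Lilrb4b at most 0.118 CPM and 391 to 685 CPM. The lowest fold changes were those of Ampd1, an AMP deaminase, from 17.3, 17.3 and 21.0 CPM to 0.119, 0.188 and 0.146 CPM (log2 fold change -6.89 ± 0.24, SE), and of Adh1, Dntt, Dapk1 and Cnn3. Dntt, the terminal transferase that adds bases to T cell receptor joints in thymocytes, had 11.5, 19.4 and 13.6 CPM in naive cells and 0.0475, 0 and 0.389 CPM in Tconv. Atp1b1, a sodium pump subunit, fell from 168 to 181 CPM to 2.002 to 4.90 CPM, and Sox4, a transcription factor of immature cells, from 24.0 to 62.5 CPM to 0.542 to 1.38 CPM.

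Transcripts of other cells were present in the KO Tconv libraries. Of 10 macrophage and monocyte markers tested 8 were called higher in KO Tconv. Without naive replicate 1, 2 or 3 the number was 4, 4 and 5, and without the filter on low counts 2. The 12 markers of the list summed to 62.1, 17.7 and 280 CPM in KO Tconv, 10.6 to 13.5 CPM in naive KO cells and 8.08 to 8.96 CPM in WT Tconv. C1qb, a complement gene of macrophages whose call was lost without naive replicate 1 (log2 fold change 7.05, edgeR adjusted p = 0.0537), had 9.02, 2.36 and 54.9 CPM in KO Tconv and 0.472 to 0.521 CPM in WT Tconv. The 12 neutrophil markers summed to 67.4, 1.84 and 73.8 CPM in KO Tconv, at most 3.25 CPM in naive KO cells and at most 0.274 CPM in WT Tconv, and in Tconv replicate 2 the granule genes Ngp, Ltf, Camp, Elane and Mpo had no count. S100a8 and S100a9 were called higher and neither was when naive replicate 1 or 2 was left out (log2 fold change 4.58 to 5.40), nor S100a8 without Tconv replicate 1 or 3 (4.69 and 4.90). None of 9 erythroid markers was called, with sums of 94.2, 27.1 and 797 CPM in KO Tconv and 42.9 to 183 CPM in naive KO cells, where WT Tconv had 2.11 to 3.47 CPM. Of 7 dendritic cell markers Itgax, which T cells also express, was the only gene called of 3 tested. The 11 B cell markers summed to 6.58 to 9.44 CPM in naive KO cells and 7.96 to 24.7 CPM in KO Tconv, and of 7 tested 2 were called higher and 2 lower. Of 6 CD8 T and NK markers tested 5 were called higher, led by Gzma at 49.0, 343 and 200 CPM, and Cd8b1 lower. Cd8a stayed at 1.31 to 1.67 CPM and Ncr1 at or below 0.0942 CPM in KO Tconv. Tconv replicate 2, with the lowest myeloid and red cell sums, was the highest Tconv library for Ccl5, Gzma and Itgb1 and the lowest for Ifng, Cxcr6, Ifitm1, Lilrb4a and Ifngr1. The sort, on CD4 and Vβ6 among other markers, would leave out these other cells, and their part in the calls was otherwise not tested. When naive replicate 1 and Tconv replicate 3 were left out together, 3326 genes were called in KO cells, and 2719 of the 3103 called in the whole set (87.6%) were among them.

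**Figure D3:**
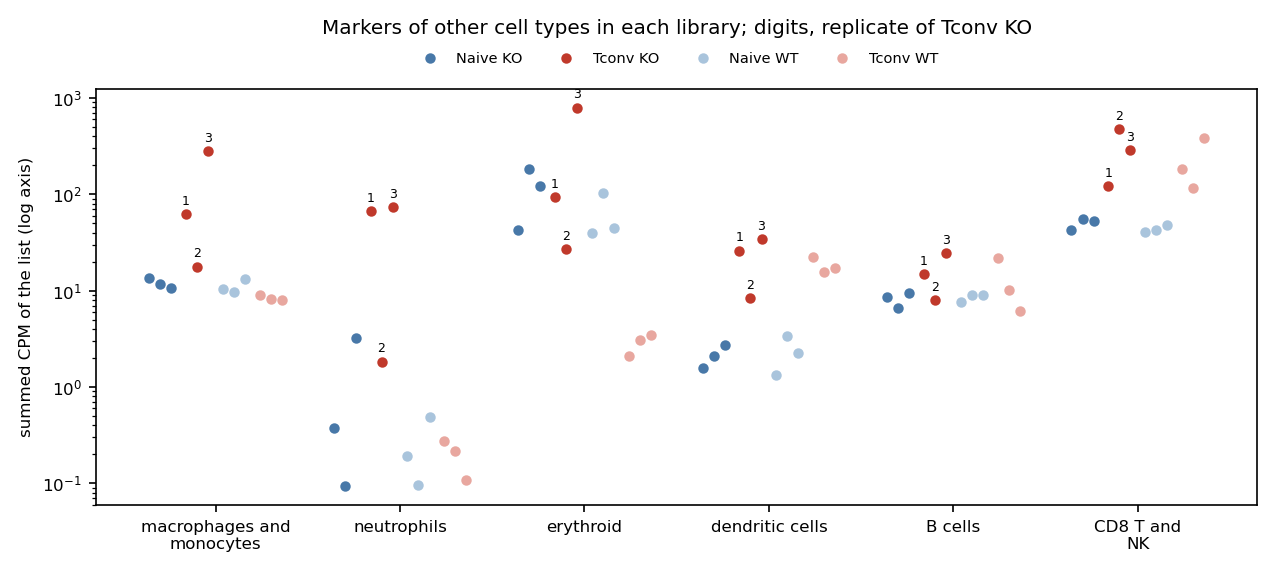
Summed CPM of marker lists of other cell types in the 12 libraries of the HP1a line, on a log axis, with 1 point per library and the replicate number written beside KO Tconv. The macrophage, neutrophil and erythroid sums of all 3 KO Tconv libraries lie above those of WT Tconv, with replicate 3 the highest (797 CPM for erythroid markers) and replicate 2 the lowest.

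The T cell receptor β segments showed how far the sort narrowed the cells. Trbv19 made up 8.23%, 8.23% and 7.19% of the summed CPM of 29 Trbv segments in naive KO cells and 65.1%, 79.1% and 73.6% in KO Tconv, and 84.0%, 77.2% and 91.7% in WT Tconv, as the gate requires. Of the 22 segments tested 18 were called lower and 2 higher in KO Tconv. The other segment called higher was Trbv17 (chr6:41139996-41140490), which lies next to Trbv19 (chr6:41155309-41155982) and was named after its values were seen. It had 2.38%, 2.25% and 2.49% of the sum in naive KO cells, 28.0%, 13.1% and 14.6% in KO Tconv, and 8.20%, 14.7% and 3.28% in WT Tconv. Its share was highest in KO Tconv replicate 1, the library with the highest Th17 genes. Among WT Tconv the share was highest in replicate 2, which had the lowest Th17 sum (809 CPM, against 892 and 1067 CPM). A link was not tested. Trbv3, the most abundant segment of naive KO cells at 13.6% to 15.0%, had 0.537% to 0.793% in KO Tconv. Salmon may divide reads between related segments, so these shares are less certain than levels of single-copy genes.

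**Figure D4:**
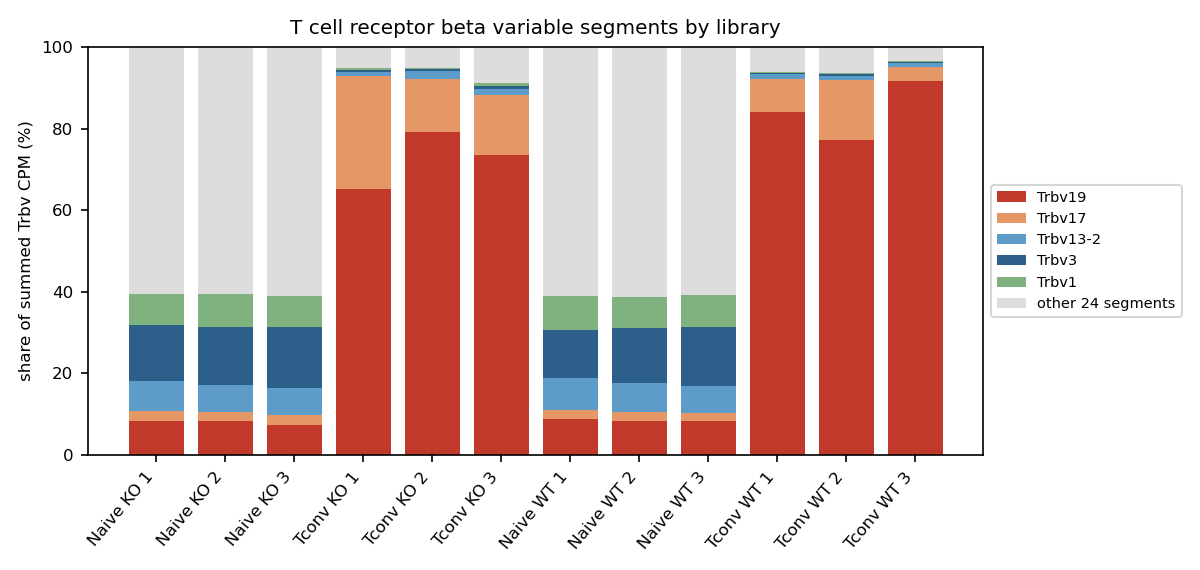
Share of each T cell receptor β variable segment in the summed CPM of 29 Trbv segments, as a percentage, in the 12 libraries of the HP1a line (stacked bars, 5 segments in colour and the others in grey). Trbv19 (red) takes 7.19% to 8.74% of naive libraries and 65.1% to 91.7% of Tconv libraries, and Trbv17 (orange) is largest in KO Tconv replicate 1.

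WT cells gave a reference for these changes. In WT, 2067 of 16027 genes were called higher in Tconv and 1635 lower. Of the genes called higher, 1642 were called in both genotypes, which is 83.7% of the KO list and 79.4% of the WT list, and of those called lower 926, which is 81.1% of the KO list and 56.6% of the WT list. Of 196 genes called higher in KO only and tested in WT, 181 had the same sign in WT, as did 181 of 195 genes called lower in KO only. Across the 15404 genes in both fits the log2 fold changes had a Pearson's r of 0.926 and a Spearman's rho of 0.888, given as a description, as genes are not independent replicates and the libraries were made with the same kit. Counts for several lists were close in WT and KO. In WT 12 of 14 Th1, 9 of 10 Th17, 33 of 37 mitosis and 10 of 14 inhibitory receptor genes were called higher, against 12, 9, 33 and 11 in KO. Others differed in count, such as macrophage markers, with 1 called higher and 1 lower of 6 tested in WT against 8 higher of 10 in KO, erythroid markers, with 5 called lower of 6 tested in WT and none of 9 in KO by edgeR, and Polycomb genes, with 3 called lower in WT and none in KO. These differences were not tested over the lists. The KO count of Polycomb genes called lower was 2 with total counts only and with all 12 libraries in 1 fit. It was also 2 without naive KO replicate 1 and without Tconv KO replicate 2. The Polycomb medians were -0.23 in KO and -0.18 in WT. The sizes were at times unlike, as for Ifng, with a log2 fold change of 12.55 in WT and 10.64 in KO, but a difference between such values needs its own test.

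**Figure D5:**
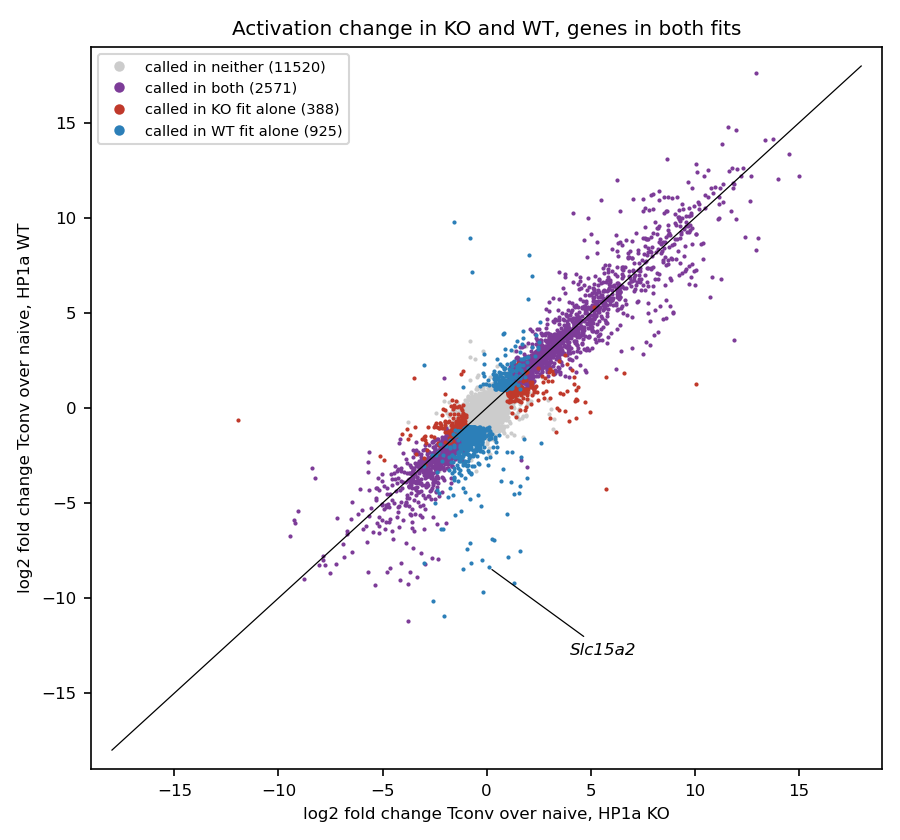
Log2 fold change of Tconv over naive cells in HP1a KO (horizontal) and in HP1a WT (vertical) for the 15404 genes in both fits, 1 point per gene, with the line of equal change. Of these genes 2571 were called in both, 388 in KO alone, 925 in WT alone and 11520 in neither, and Slc15a2 lies far below the line.

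That test, the interaction of genotype and activation over the 12 libraries, called 1 of 17038 genes (0.00587% of genes tested), Slc15a2, and 834 genes had an unadjusted p under 0.05 in edgeR. The next smallest adjusted p was 0.0806, and DESeq2 called 70 genes. The absence of calls is not evidence of equal responses, since the 95% interval of the difference had a median half-width of 0.71 on the log2 scale. It lay within 1 on either side of 0 for 8795 genes (51.6%), but for 815 (26.3%) of the 3103 genes called in KO cells. Naive replicate 1 stood apart in both genotypes, and the fit held no term for this. Slc15a2 (chr16:36570475-36605334), which encodes the peptide transporter PEPT2, had 16.0, 5.15 and 4.30 CPM in naive KO cells and 8.90, 10.1 and 7.51 CPM in KO Tconv. The KO groups overlapped, with a log2 fold change of 0.10 ± 0.49 (SE, edgeR adjusted p = 0.892). In WT it had 15.7, 18.02 and 11.3 CPM in naive cells and 0.0274, 0.0429 and 0.0542 CPM in Tconv, which are 1, 2 and 2 counts and below the floor in each library, a log2 fold change of -8.37. The sum of 5 counts has an exact 95% Poisson interval of 1.62 to 11.7 counts, which covers counting error only. The difference of the changes was 8.46 on the log2 scale (adjusted p = 0.0032), with a range of adjusted p from 1.34e-18 to 0.0517 over the alternatives, and the call was lost without replicate 2 of WT Tconv, where the difference was 8.48. A long noncoding RNA, ENSMUSG00000120777, overlaps Slc15a2 on the same strand, so reads may be divided between the pair, and it had 38.3, 15.0 and 13.4 CPM in naive KO cells and 21.0, 17.4 and 17.5 CPM in KO Tconv, and 46.3, 29.0 and 24.5 CPM and 9.10, 9.22 and 8.35 CPM in the WT groups. For both genes naive KO replicate 1 was the highest naive KO library.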

How the data were processed

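Gene expression was taken from the table of the whole series, where each value, as deposited by the authors, is an estimated count of a gene without scaling or filtering. Per the labels and the study's methods, RNA was amplified with SMART-Seq v4 PLUS and sequenced in pairs, and the authors trimmed the reads, aligned them with STAR to GRCm39 and quantified them with Salmon in the nf-core/rnaseq pipeline. Salmon divides reads that match several genes, so copies and overlapping genes have less certain counts, and the kit is not stated to mark strand. Of the values 82.9% were whole, and 37754 of 56748 genes had counts in the 36 libraries.

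Columns were matched to samples by title. Counts were rounded, filtered with filterByExpr, normalised with TMM and tested with edgeR 4.0.16 (glmQLFit with robust estimation and glmQLFTest, R 4.3.3), for Tconv against naive cells in KO and, separately, in WT, and for the interaction over 12 libraries. P-values were adjusted by Benjamini-Hochberg over all genes of a fit. Following the study, calls required an adjusted p under 0.05 and a log2 fold change over 1 in either direction. SE refers to the log2 fold change. Alternatives were DESeq2 1.42.0, which the authors used, RLE size factors, total counts only, no filter, no fold threshold, the replicate number as a block, all 12 libraries in 1 fit, each library left out in turn and, chosen after seeing the data, naive replicate 1 and Tconv replicate 3 left out together. The scripts were tested on simulated data.

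The gene lists, the members and the rules were chosen with earlier results of these data known, so no list is independent support. Genes were named if they were Cbx5, Cbx1, Cbx3 or preset anchors of a list, if they were among the 3 members called in each direction with the highest mean CPM of their list, or if they had the 10 highest or lowest log2 fold changes of the called genes whose mean reached 5 CPM and whose groups did not overlap, leaving out receptor segments, predicted genes and pseudogenes. For the interaction all called genes were named. Members of a list that are named without values, and any other gene so marked, were chosen after their values were seen. Exhaustion genes were matched by a synonym in 12 cases, and 2 were not matched. Gene positions and promoters come from GENCODE M39 on GRCm39, which lacked 731 genes of the table. The Th1 and exhaustion lists were curated by the study. Some genes that the rule names are not reported here.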

Additional observations from a re-analysis of the deposited data

Results flagged for a closer look

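The response of Slc15a2 to activation differed between the genotypes. The interaction of genotype and activation was 8.46 on the log2 scale (edgeR's quasi-likelihood test, adjusted p = 0.0032), the only call among 17038 genes. The log2 fold change was 0.10 in KO cells, with overlapping groups, and -8.37 in WT cells, where each naive library was above each Tconv library. The WT value rests on 5 counts in 3 Tconv libraries, and the call was lost without replicate 2 of WT Tconv (adjusted p = 0.0517).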

How the results depend on the processing

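With the fold threshold kept, 2744 to 3476 genes were called in KO cells and 3366 to 4132 in WT cells when each library was left out in turn, and 82.5% to 99.6% of the 3103 KO calls were called again under each alternative. Without a fold threshold 6408 genes were called in KO and 7324 in WT. The interaction called 70 genes with DESeq2, 5 without the filter and 0 to 6 with each library left out in turn, 0 without replicate 2 of WT Tconv, 2 without naive KO replicate 2, Tconv KO replicate 3 or Tconv WT replicate 1, 3 without Tconv KO replicate 1 or naive WT replicate 2, and 6 without Tconv KO replicate 2. The causes were not tested. Scaling to total counts moved the median over all genes from -0.04 to -0.18 in WT and from -0.01 to -0.09 in KO.

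With the replicate number as a block, 3014 genes were called in KO (1936 higher), 3543 in WT and 1 in the interaction. In the interaction the block was set within each genotype, so it did not match naive KO with naive WT libraries. The labels do not say what the number shares, and deviations of equally numbered naive and Tconv libraries correlated at 0.16, 0.112 and 0.0416 in KO and at 0.0628, -0.0572 and 0.0804 in WT, so the numbers were not taken as pairs. Unequal numbers correlated at -0.175 to 0.0658 in KO and at -0.123 to 0.0315 in WT. Each naive KO library correlated best with its own number. Not every library did, as Tconv KO replicate 3 correlated best with naive KO replicate 2 (0.0658).

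Of 153 named genes that were called, 26 lost the call under at least 1 alternative, and 127 did not. Genes that changed sign were not called in the main result and were near 0. Cbx1 was at -0.0250 with total counts and Dnmt1 at -0.0802, and Il7r at -0.0406. Dnmt1 was at -0.00446 with DESeq2, -0.00620 with RLE size factors, -0.0256 with the block and -0.0217 with all 12 libraries. Without naive replicate 1 and Tconv replicate 3 together, Il7r was at -0.0205, Trim28 at 0.0422 and Dnmt1 at -0.0835. With each library left out in turn, the range was -0.0416 to 0.101 for Cbx1, -0.0864 to 0.00835 for Cbx3, -0.174 to 0.159 for Il7r, -0.153 to 0.0421 for Trim28, -0.220 to 0.178 for Dnmt1 and -0.242 to 0.915 for Slc15a2 in KO. With the fold threshold kept, 23 of 1118 list counts moved by over 1.5 times. Most were of markers of other cells, and the rest were of Polycomb genes, activation and effector transcription factors, TGF-β genes and the BCL2 family. Depth limits genes near 3 counts per library.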
